A study of Mus musculus with 9 samples.

Results

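Tyrosine and histidine are both broken down in the liver, and the enzymes of these routes are the subject here. They are 9 genes of the 19938 that could be named on the array, 5 for tyrosine (Tat, Hpd, Hgd, Gstz1 and Fah) and 4 for histidine (Hal, Uroc1, Amdhd1 and Ftcd). They were chosen by the name of the enzyme, with earlier results of these data known, and each has 1 probe set, a group of short probes that together read a gene. Liver RNA was measured on Affymetrix Mouse Gene 1.0 ST arrays in 9 pools, each made from 5 male C57Bl/6J mice of 1 group and read on 1 array.

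All mice were first fed a low fat-normal protein (LF-NP) diet, with 10% of the energy from fat and 15% from protein. The reference group was killed at week 0, at an age of 12 weeks. The other mice received LF-NP, LF-HP (10% fat, 50% protein), HF-NP (35% fat, 15% protein) or HF-HP (35% fat, 50% protein) diets, where HF is high fat and HP high protein. Livers were taken after 1 week, at a labelled age of 13 weeks, or after 12 weeks, at a labelled age of 22 weeks. These ages disagree, since mice of 12 weeks would reach 24 weeks after 12 weeks of diet. All mice received a calibrated meal before they were killed, so the values are from livers after a meal. Carbohydrate made up 75% of energy in LF-NP, 40% in LF-HP, 50% in HF-NP and 15% in HF-HP, so more protein and less carbohydrate cannot be told apart.

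Tyrosine breakdown starts with the removal of its amino group and goes on by oxidation and opening of the ring, until fumarate, which can enter gluconeogenesis, and acetoacetate, a ketone body, remain. Histidine breakdown starts with the release of ammonia, passes through urocanate and ends in glutamate, while a carbon unit is handed to tetrahydrofolate. Both routes are most active in hepatocytes, and the first enzyme of each is known to be regulated by diet and hormones. Inherited loss of Fah causes tyrosinaemia, and loss of Hal causes histidinaemia.

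The signals are log2 values by robust multiarray analysis (RMA), so a difference of 1 is a doubling of signal. Over the 19938 genes the medians of the 9 arrays differed by at most 0.064, a likeness that the normalisation in RMA brings about. Across the full set of probe sets any pair of arrays correlated at 0.988 to 0.993. Levels of different probe sets were not compared with each other. Since each diet and week had a single pool, the spread among HP or among NP pools came from pools that differed in fat level or week. No diet was repeated at the same week. The mean signal of hepatocyte markers (6 of 6 with a value) was between 13.24 and 13.32 in HP pools and between 13.21 and 13.29 in NP pools.

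The early enzymes of both routes had a higher signal in HP than in NP pools, with a difference of 0.37 for Tat, 0.24 for Hpd and 0.19 for Hgd in the tyrosine route and of 0.32 for Hal and 0.24 for Uroc1 in the histidine route. Each was higher in HP in all 4 matched comparisons, in which the HP pool and its NP counterpart shared fat level and week. The last enzymes of both routes had differences close to 0, with -0.03 for Gstz1, 0.02 for Fah and 0.02 for Ftcd. Amdhd1, the histidine enzyme between Uroc1 and Ftcd, lay between these groups, with 0.14 and a higher HP signal in 3 of 4 matched comparisons. None of the 9 genes passed the test across all genes (limma with protein, fat and week as terms, adjusted p under 0.05), where 0.171% of all genes were called higher and 0.271% lower in HP. The smallest adjusted p of the 9 in limma was 0.218, for Tat.

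At an unadjusted p under 0.05 in limma, 5 of the 9 genes were higher in HP (Tat, Hpd, Hgd, Hal and Uroc1), against 4.59% of all genes. For 4 of the 9 (Hpd, Hgd, Hal and Uroc1) every HP pool lay above every NP pool, as it did for 1.88% of all genes. The sign was positive in all 4 matched comparisons for 5 of the 9, against 6.01% of all genes. The 9 genes were read in the same pools and are not independent of each other. The median difference was 0.19 over the tyrosine enzymes, 0.19 over the histidine enzymes and -0.00 over all genes.

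**Figure D1:**
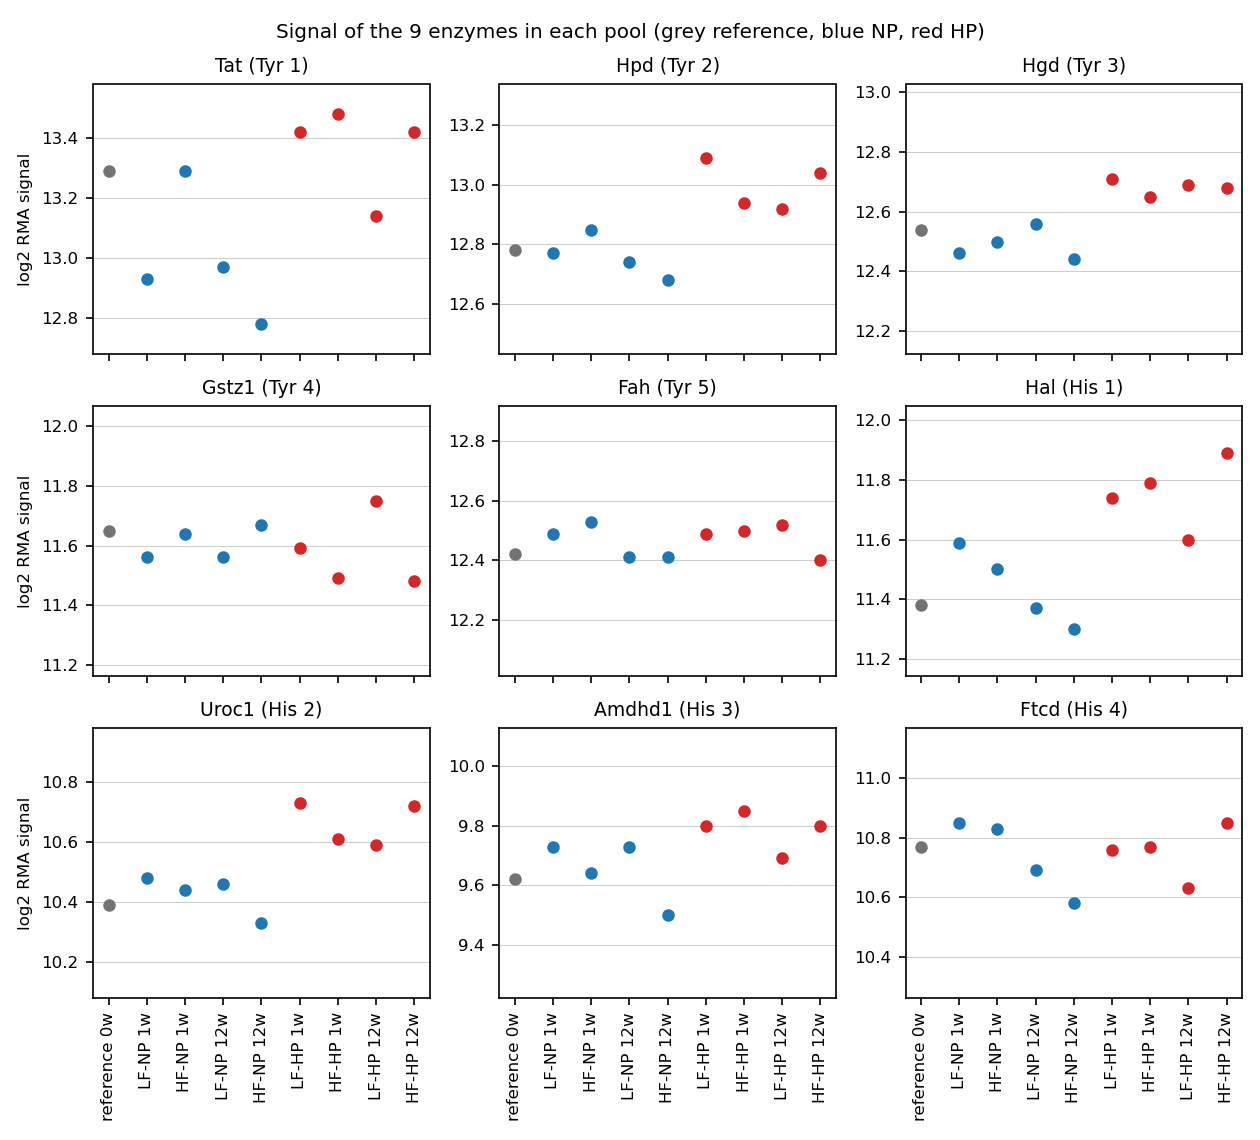
Log2 RMA signal (y axis, each panel spanning the same number of log2 units) of the 9 enzymes in each of the 9 pools (x axis), 1 point per array. Panels are numbered by the step of the tyrosine (Tyr) or histidine (His) route. HP points lie above all NP points for Hpd, Hgd, Hal and Uroc1, with a gap of 0.01 for Hal, while they overlap for the others.

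Tat, tyrosine aminotransferase, takes the amino group off tyrosine and is the rate-limiting step of the route. Its signal in NP pools was 12.93 (LF, 1 week), 13.29 (HF, 1 week), 12.97 (LF, 12 weeks) and 12.78 (HF, 12 weeks). In HP pools it was 13.42, 13.48, 13.14 and 13.42 in the same order. A single NP pool, HF-NP at 1 week, reached into the HP range, above LF-HP at 12 weeks. The HP pools averaged 13.36 ± 0.15 (SD, n = 4) and the NP pools 12.99 ± 0.22 (SD, n = 4), a 1.29-fold difference (SE 0.09 on the log2 scale, 95% interval 0.15 to 0.59). Across all genes, 98.8% had a smaller HP minus NP difference than Tat.

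Hpd, hydroxyphenylpyruvate dioxygenase, turns the product of Tat into homogentisate. Its NP signals were 12.77 (LF, 1 week), 12.85 (HF, 1 week), 12.74 (LF, 12 weeks) and 12.68 (HF, 12 weeks), and its HP signals 13.09, 12.94, 12.92 and 13.04. The groups did not overlap, and the nearest pools were HF-NP at 1 week and LF-HP at 12 weeks. The difference was 0.24 (SE 0.06, 95% interval 0.09 to 0.39, 1.18-fold), with an adjusted p of 0.235 in limma. Hgd, homogentisate dioxygenase, opens the ring. Its NP signals were 12.46, 12.50, 12.56 and 12.44 and its HP signals 12.71, 12.65, 12.69 and 12.68, in the order used for Hpd. The 4 HP pools of Hgd lay within a narrow band, with an SD of 0.03 against 0.06 in NP. The difference of Hgd was 0.19 (SE 0.05, 95% interval 0.07 to 0.32, 1.14-fold), with an adjusted p of 0.258.

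Gstz1, maleylacetoacetate isomerase, and Fah, fumarylacetoacetate hydrolase, carry out the last steps. Gstz1 gave 11.56 (LF, 1 week), 11.64 (HF, 1 week), 11.56 (LF, 12 weeks) and 11.67 (HF, 12 weeks) in NP and 11.59, 11.49, 11.75 and 11.48 in HP pools. The HP values of Gstz1 enclosed the NP values, with both HF-HP pools lowest and LF-HP at 12 weeks highest. Fah was the steadiest of the 9 genes, between 12.40 and 12.53 over the 9 pools, a smaller range than that of 97.0% of all genes. Its NP signals were 12.49, 12.53, 12.41 and 12.41 and its HP signals 12.49, 12.50, 12.52 and 12.40. The 95% intervals of the HP minus NP difference were -0.20 to 0.15 for Gstz1 and -0.11 to 0.15 for Fah, with adjusted p of 0.946 and 0.955. Whether the early and the late enzymes differ from each other was not tested.

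Hal, histidine ammonia lyase, removes ammonia from histidine and gives urocanate. In NP pools its signal was 11.59 (LF, 1 week), 11.50 (HF, 1 week), 11.37 (LF, 12 weeks) and 11.30 (HF, 12 weeks), and in HP pools 11.74, 11.79, 11.60 and 11.89. The groups came close, since LF-NP at 1 week and LF-HP at 12 weeks differed by 0.01, and they overlapped once each array was centred on its median. The HP pools averaged 11.75 ± 0.12 (SD, n = 4) and the NP pools 11.44 ± 0.13 (SD, n = 4). The difference was 0.32 (SE 0.08, 95% interval 0.13 to 0.51, 1.25-fold), with an adjusted p of 0.225.

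Uroc1, urocanate hydratase, takes the second step. Its NP signals were 10.48 (LF, 1 week), 10.44 (HF, 1 week), 10.46 (LF, 12 weeks) and 10.33 (HF, 12 weeks), and its HP signals 10.73, 10.61, 10.59 and 10.72. All HP pools were above all NP pools, with a difference of 0.24 (SE 0.06, 95% interval 0.09 to 0.38, 1.18-fold) and an adjusted p of 0.236. Amdhd1, imidazolonepropionase, gave 9.73, 9.64, 9.73 and 9.50 in NP and 9.80, 9.85, 9.69 and 9.80 in HP pools. Here LF-HP at 12 weeks was below both LF-NP pools, and the difference of 0.14 (95% interval -0.03 to 0.30) had an adjusted p of 0.596. Without LF-HP at 12 weeks every HP pool was above every NP pool for Amdhd1 and for Tat too, 6 of the 9 genes in place of 4, while the share of all genes without overlap was then 4.56% in place of 1.88%. Without HF-NP at 1 week it was so for Tat but not for Amdhd1, 5 of the 9 genes against 3.34% of all.

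Ftcd, formimidoyltransferase cyclodeaminase, moves the carbon unit to tetrahydrofolate and leaves glutamate. Its signal was 10.85 (LF, 1 week), 10.83 (HF, 1 week), 10.69 (LF, 12 weeks) and 10.58 (HF, 12 weeks) in NP and 10.76, 10.77, 10.63 and 10.85 in HP pools. HP was below NP in 3 of 4 matched comparisons of Ftcd and above it by 0.27 with HF at 12 weeks. The overall difference of 0.02 (95% interval -0.16 to 0.19) had an adjusted p of 0.97.

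**Figure D2:**
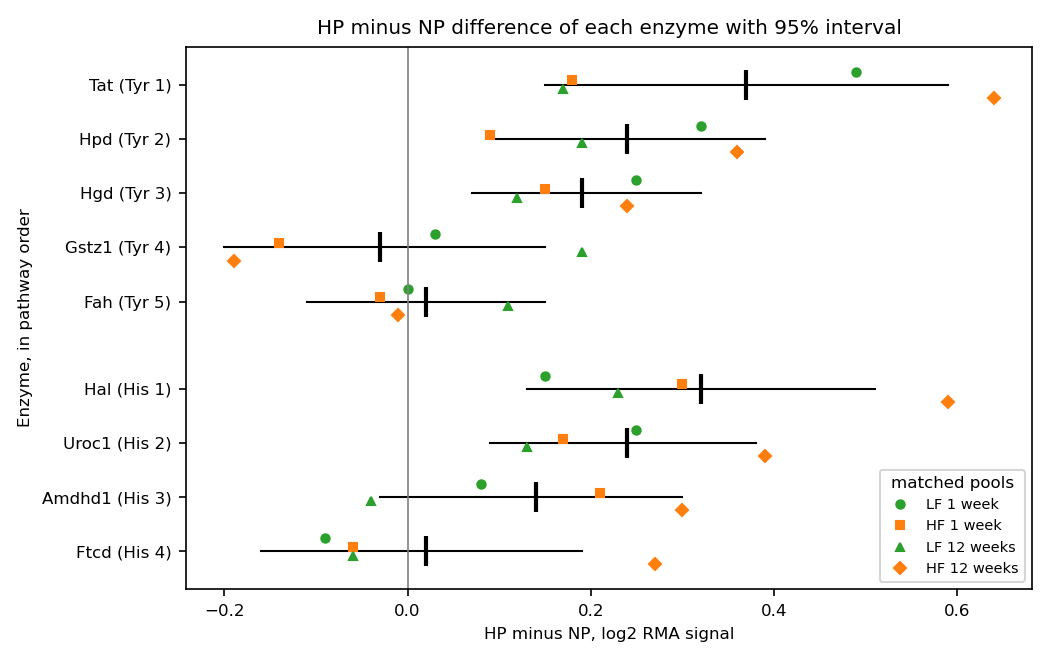
Difference in log2 RMA signal, HP minus NP (x axis) for each enzyme in pathway order (y axis). The vertical tick is the limma estimate, the line its 95% interval and the symbols the 4 matched comparisons. The intervals of Tat, Hpd, Hgd, Hal and Uroc1 lie above 0, and those of the other 4 genes include it.

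Within matched pools the size of the difference varied with fat level and week. For Tat it was 0.49 in LF and 0.18 in HF at 1 week, and 0.17 in LF and 0.64 in HF at 12 weeks. Hpd had a like order, with 0.32, 0.09, 0.19 and 0.36, and so had Hgd, with 0.25, 0.15, 0.12 and 0.24. In these genes the LF comparison was the larger at 1 week and the HF comparison the larger at 12 weeks. For Hal the values were 0.15 and 0.30 at 1 week and 0.23 and 0.59 at 12 weeks, so HF gave the larger difference at both times. Uroc1 gave 0.25, 0.17, 0.13 and 0.39, with LF and HF ordered as for Tat. Each of these values sets 1 pool against 1 pool, without a replicate check.

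The comparison of HF with 12 weeks gave the largest matched difference for Tat, Hpd, Hal, Uroc1, Amdhd1 and Ftcd. The share of all genes for which it did so was not counted. The HF-NP pool of 12 weeks, which enters that comparison, had the lowest signal of all 9 pools for 7 of the 9 genes, all but Gstz1 and Fah. This pool was the lowest for 14.7% of all genes. Gstz1 and Fah were lowest in HF-HP at 12 weeks, the pool that was highest for Hal and Ftcd. Of all genes, 15.2% were lowest and 14.7% highest in HF-HP at 12 weeks. LF-HP at 1 week was highest for Hpd, Hgd and Uroc1 (9.28% of all genes), and HF-HP at 1 week for Tat and Amdhd1 (11.3% of all genes). Median signals were 5.87 in HF-NP at 12 weeks and between 5.83 and 5.89 over all pools. The normalisation in RMA makes array medians nearly equal, so they do not describe the quality of this array.

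Neither fat nor time on the diet gave a called difference in the 9 genes. HF minus LF differences lay between -0.05 and 0.13, with Tat at the upper end (95% interval -0.09 to 0.35), and all adjusted p in limma were 0.999. In that comparison 0% of all genes passed, 664 had an unadjusted p under 0.05, and 0 of the 9 did. The 12 weeks minus 1 week differences lay between -0.20 and 0.04. Tat had the lowest (95% interval -0.42 to 0.02, adjusted p 0.664 in limma) and Gstz1 the highest. There 0.00502% of all genes passed, 1538 had an unadjusted p under 0.05, and 0 of the 9 were among either.

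Whether the protein difference itself depended on fat or week was tested by interactions in limma. Protein by fat ranged from -0.28 for Gstz1 to 0.25 for Hal, with adjusted p from 0.711 to 0.988, and 0% of all genes passed. Protein by week ranged from -0.02 for Hgd to 0.19 for Hal, with an adjusted p of 1 for all 9, and again 0% of all genes passed. At an unadjusted p under 0.05 there were 1400 and 523 genes in all, and 0 of the 9 in either. The 95% intervals were wide. For protein by fat the lowest limit over the 9 genes was -0.56 (Gstz1) and the highest 0.60 (Hal). The interval of Tat (-0.39 to 0.55) held values larger than its HP minus NP difference of 0.37. Those of Hpd, Hgd and Fah did not reach that size.

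The reference pool, which had eaten LF-NP only, gave another baseline. Against it Hpd, Hgd, Hal, Uroc1 and Amdhd1 were higher in 4 of 4 HP pools, with mean differences of 0.22, 0.14, 0.37, 0.27 and 0.17. Their mean NP differences from the reference pool were -0.02, -0.06, 0.06, 0.04 and 0.04. Of 4 NP pools, 1 was above the reference for Hpd and for Hgd, 2 for Hal, and 3 for Uroc1 and for Amdhd1. For Amdhd1, LF-NP at 12 weeks (0.12) was further above it than LF-HP at 12 weeks (0.08). The share of all genes with 4 of 4 HP pools above the reference was not counted. These comparisons share 1 control pool and have no test. Hal was highest above the reference in HF-HP at 12 weeks (0.51, 1.43-fold) and lowest among HP pools in LF-HP at 12 weeks (0.22).

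Tat differed from this, since its reference signal of 13.29 was level with the HP pools. HP pools lay between -0.15 and 0.19 from the reference pool (mean 0.07), and NP pools between -0.51 and 0.00 (mean -0.30). Over the 3 pools fed LF-NP for their whole time, at weeks 0, 1 and 12, Tat had a range of 0.37, against 0.04 for Hpd, 0.10 for Hgd and 0.22 for Hal. When the LF-NP pools of 1 and 12 weeks were averaged as the baseline, the mean HP difference of Tat was 0.41. The same baseline gave 0.06 for Amdhd1 in place of 0.17, with LF-HP at 12 weeks at -0.04, 0.19 for Uroc1 in place of 0.27, and 0.17 for Hgd in place of 0.14. Hpd (0.25) and Hal (0.28) moved by less than the SD of their HP pools.

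The other cells of the liver were checked by marker genes, since fewer cells of a type and less RNA per cell cannot be told apart in pooled tissue. Periportal hepatocytes, which hold much of the histidine and amino acid breakdown, had a mean marker signal of 11.45 to 11.68 in HP and 11.23 to 11.55 in NP pools (5 of 8 markers with a value), a difference of 0.15. Pck1, a gene of gluconeogenesis in that list, alone had a difference of 0.44. Arg1 of that list was higher without overlap (11.64 to 11.89 in HP, 11.38 to 11.64 in NP), and so was Cps1 of the hepatocyte list (13.43 to 13.48 in HP, 13.15 to 13.32 in NP). Arg1 was the only 1 of the 5 periportal markers without overlap, and Cps1 the only 1 of the 6 hepatocyte markers. Of all genes, 1.88% were higher without overlap. The mean of the hepatocyte markers differed by 0.02. Pericentral markers (8 of 8) lay between 10.17 and 10.29 in HP and between 10.21 and 10.37 in NP pools. Of these, Lgr5 was called lower in HP, without overlap (lowest value 6.66 in HP and 7.54 in NP), while Oat, which breaks down ornithine, was higher without overlap (12.26 to 12.65 against 11.67 to 12.02). Lymphocyte markers (3 of 4) were 4.69 to 4.98 in HP and 4.99 to 5.35 in NP pools, without overlap, and so was Cd3e of them (5.61 to 5.91 against 5.96 to 6.23). The mean of these markers was below the median signal of every array (5.83 to 5.89), and its HP and NP values nearly touched. Kupffer cell, endothelial, stellate, cholangiocyte, neutrophil, erythroid, adipocyte and pancreas markers overlapped. The part of these shifts in the enzyme differences was not tested. RMA values have no true zero, so absence of a marker cannot be read from them.

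By position the 9 genes are spread over several chromosomes, with 3 of them on chromosome 10. On the RefSeq annotation of build GRCm38.p6, Hal lies on the plus strand at chr10:93488768-93516761 and Amdhd1 on the minus strand at chr10:93523338-93540111. Their 3′ ends face each other 6576 bases apart with 0 annotated genes between. Hal and Amdhd1 had HP minus NP differences of 0.32 and 0.14. Ftcd is on the same chromosome at chr10:76575648-76590338. The tyrosine genes have no such neighbours, with Tat at chr8:109986078-109999804, Hpd at chr5:123171807-123182723, Hgd at chr16:37579742-37632026, Gstz1 at chr12:87147161-87164723 and Fah at chr7:84585159-84605942.

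Promoter windows of 250 bases before the start site were taken from RefSeq (GRCm38.p6), and all 9 genes had at least 1. The windows of Tat, Hal and Ftcd are shown, as the first enzyme of each route and the histidine enzyme with a difference near 0. They run 5′ to 3′ on the plus strand at chr8:109990186-109990435, chr10:93488518-93488767 and chr10:76575398-76575647, where that of Tat lies inside the annotated span of the gene. Capitals mark motif matches on either strand, TATAAA (read as its reverse complement in Hal) and, in Ftcd, also GTTAAT.
Tat: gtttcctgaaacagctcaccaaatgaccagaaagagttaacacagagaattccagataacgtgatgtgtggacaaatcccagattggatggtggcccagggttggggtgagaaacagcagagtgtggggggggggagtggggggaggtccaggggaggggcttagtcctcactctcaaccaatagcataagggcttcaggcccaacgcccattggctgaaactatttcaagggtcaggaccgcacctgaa
Hal: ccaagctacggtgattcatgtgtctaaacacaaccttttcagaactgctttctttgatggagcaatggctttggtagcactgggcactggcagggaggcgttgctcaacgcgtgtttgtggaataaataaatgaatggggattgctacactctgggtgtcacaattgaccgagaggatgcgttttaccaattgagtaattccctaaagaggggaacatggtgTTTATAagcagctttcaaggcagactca
Ftcd: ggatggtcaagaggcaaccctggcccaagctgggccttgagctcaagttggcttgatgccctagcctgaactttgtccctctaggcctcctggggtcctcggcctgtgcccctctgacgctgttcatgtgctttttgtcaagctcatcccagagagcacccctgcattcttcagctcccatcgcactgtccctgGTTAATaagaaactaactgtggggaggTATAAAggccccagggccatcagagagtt

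The letters of the TATA box, TATAAA, were found in Ftcd 29 to 24 bases before the start, on the plus strand. In Hal they were found 28 to 23 bases before it, but on the minus strand, against the direction of the gene. They also matched Hgd on the minus strand, 139 to 134 bases before the start, in a window inside the annotated span of the gene. Of 32851 mouse promoter windows of this length, 12.4% held these letters on either strand. The motif of HNF1, a factor of hepatocyte genes, searched as GTTAAT, was found in Ftcd alone, and in 6.43% of all windows. It did not overlap the TATAAA of Ftcd. Both strands were searched, and no window of the 9 genes held the glucocorticoid receptor motif TGTTCT (16.1% of all windows), the cAMP response element TGACGTCA (1.55%) or the C/EBP palindrome TTGCGCAA (0.164%). The amino acid response element core TGATGCAA (0.791%) and the HNF4 element CAAAGTCCA (0.384%) were not found either. A match is a description of letters, and enhancers outside the windows were not searched.

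Other genes of the phenylalanine and tyrosine route were read from a list, of which 17 of 19 have a value here. None passed the test, 7 were higher and 0 lower in HP at an unadjusted p under 0.05, and their median difference was 0.20. Of all genes, 4.59% were higher at that threshold and 10.3% were past it in either direction. Got1, cytosolic aspartate aminotransferase, which can also act on aromatic amino acids, was closest to the threshold. Its signal was 12.11 (LF, 1 week), 11.96 (HF, 1 week), 11.70 (LF, 12 weeks) and 11.08 (HF, 12 weeks) in NP and 12.91, 12.91, 12.31 and 12.73 in HP pools. The difference of Got1 was 1.00 (SE 0.15, 2.00-fold, adjusted p = 0.0503 in limma), larger than that of any of the 9 enzymes. Like Tat, Got1 had its lowest signal in HF-NP at 12 weeks. The differences were 0.34 for Slc16a10, a transporter of aromatic amino acids, 0.34 for Mif and 0.32 for Ddt, a pair of related tautomerases.

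For histidine and one-carbon genes, 13 of 16 had a value, 0 passed and the median was 0.03. At an unadjusted p under 0.05, 3 were higher and 0 lower, against 4.59% of all genes higher and 10.3% in either direction. Aldh1l1, which oxidises the formyl group carried by tetrahydrofolate and so acts after Ftcd, had the largest difference, 0.31 (adjusted p = 0.102 in limma). Slc15a4, a histidine and peptide transporter of lysosomes, had 0.21, Slc38a3, a glutamine and histidine carrier, 0.16 and Glud1, glutamate dehydrogenase, 0.13. The 3 higher genes were Aldh1l1, Slc38a3 and Glud1, each higher in HP in 4 of 4 matched comparisons. Slc15a4 was higher in 2 of 4, and its 95% interval (-0.06 to 0.48) included 0. The tRNA synthetases of tyrosine, histidine and phenylalanine, which use these amino acids for protein synthesis, had a median of 0.00 and differences from -0.08 (Hars2) to 0.07 (Yars2 and Hars). Of these 6 genes 0 had an unadjusted p under 0.05, against 10.3% of all genes.

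**Figure D3:**
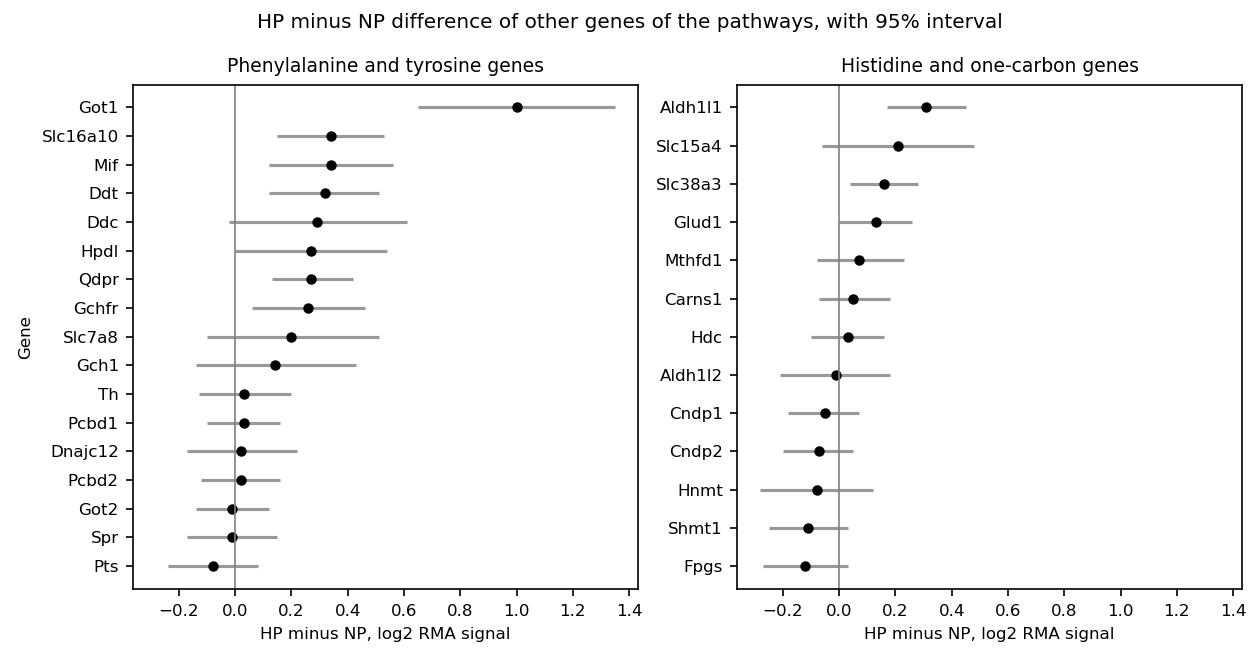
Difference in log2 RMA signal, HP minus NP (x axis) of other phenylalanine and tyrosine genes (left) and of histidine and one-carbon genes (right), ordered by size on the y axis. Points are limma estimates and lines 95% intervals. Got1, at 1.00, stands to the right of all others.

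Factors that are known to regulate these enzymes in the liver, such as the glucocorticoid receptor and cAMP pathways, gave a mixed picture. Of 13 with a value (14 listed), 0 passed, 3 were higher and 2 lower in HP at an unadjusted p under 0.05. The share of all genes was 4.59% higher and 10.3% in either direction. Ppargc1a, a coactivator of fasting and gluconeogenic genes, had a signal of 7.90, 7.90, 8.18 and 7.64 in NP and 9.15, 9.47, 8.68 and 9.79 in HP pools, in the order LF and HF at 1 week, then LF and HF at 12 weeks. The difference of Ppargc1a was 1.36 (adjusted p = 0.0592 in limma). Crem, a cAMP-responsive modulator, had 0.36, Gcgr, the glucagon receptor, -0.22 and Foxa1, a hepatocyte factor, -0.24. Foxa1 was not among the 2 lower genes (unadjusted p = 0.0531 in limma), which were Gcgr and Cebpa (-0.18). The 3 higher genes were Ppargc1a, Crem and Atf4 (0.15). Nr3c1, the gene of the glucocorticoid receptor, had -0.03. Among genes that respond to glucocorticoids or cAMP, 9 of 10 had a value, 0 passed and 2 were higher at an unadjusted p under 0.05 (4.59% of all genes). In that list Pck1, of gluconeogenesis, and Igfbp1, a binding protein of growth factors, both had 0.44, Per1, of the clock, 0.42 and Fkbp5, a chaperone partner of the glucocorticoid receptor, 0.40. The 95% intervals of Igfbp1 (-0.31 to 1.19) and Fkbp5 (-0.09 to 0.89) included 0. Over the whole list the median was 0.22. Zbtb16 had -0.19, Dusp1 -0.00, G6pc 0.02, Tsc22d3 0.06 and Sgk1 0.22.

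The enzymes that varied most over the 9 pools were Tat (range 0.70) and Hal (range 0.59). For these, the genes with the most alike pattern were found by the root mean square distance between profiles over the 9 pools, each centred on its own mean. For Tat they were Mknk2, a kinase of the translation machinery (0.071), Sptssa, a subunit of the first enzyme of sphingolipid synthesis (0.078), and Gldc of the glycine cleavage system (0.087). For Hal they were Morc2a (0.062), Cox5a of the respiratory chain (0.062) and Dgat1 of triglyceride synthesis (0.066). Among the 9 enzymes the nearest to Tat was Hpd (0.148) and the nearest to Hal was Uroc1 (0.087). The genes were taken as the nearest of 19938 in 9 pools, so they describe these pools.

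**Figure D4:**
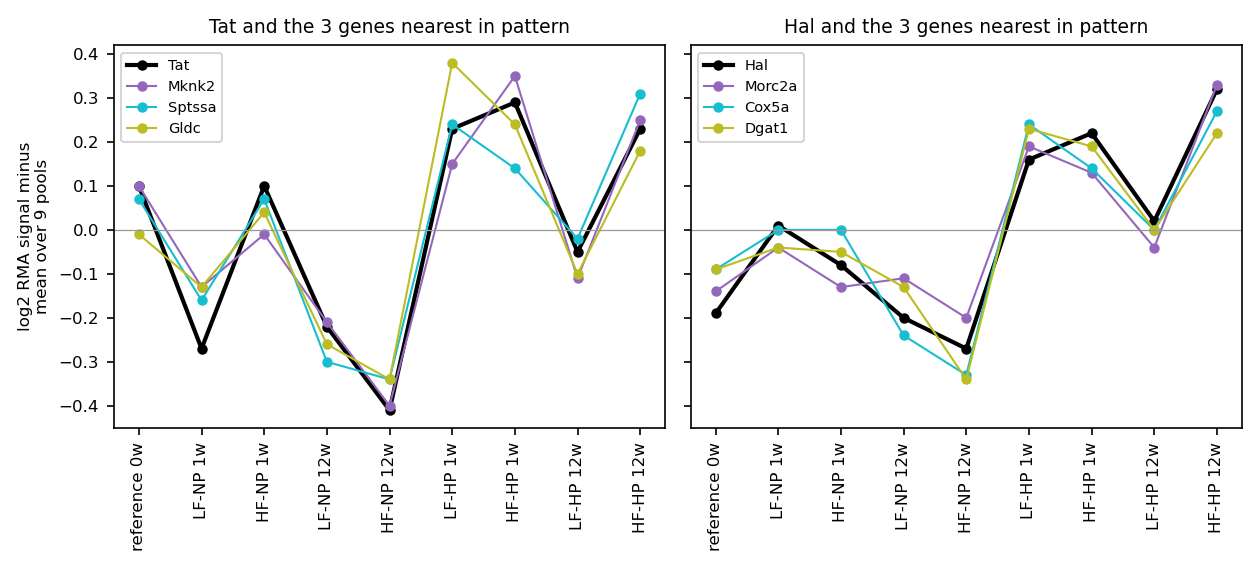
Log2 RMA signal minus the mean over 9 pools (y axis) in each pool (x axis) for Tat (left) and Hal (right), each with the 3 genes nearest in pattern. In both panels the HF-NP pool of 12 weeks is the lowest point of the enzyme, at -0.41 for Tat and -0.27 for Hal.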

How the data were processed

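Liver RNA of 9 pools of 5 mice was measured on 1 array each. The authors made the deposited values by RMA, so they are log2 signals after background correction and quantile normalisation, 1 value per probe set, between 1.41 and 14.46. The methods name probe sets regrouped by Entrez Gene, while the table holds the array's own 35556 probe sets. Of these, 21789 have 1 gene symbol, 1621 several and 12146 none in the array annotation. The brightest probe set by mean was kept for the 999 genes with several. Scanner files were not used, and background correction and summarisation stayed as deposited.

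The fit was made in limma 3.58.1 under R 4.3.3 over 8 diet pools (4 HP, 4 NP) with protein, fat and week as terms, with 4 residual degrees of freedom and 3.52 from the prior. Benjamini-Hochberg adjustment covered 19938 genes (threshold 0.05). Interactions came from fits with 1 more term. The reference pool stayed out of the fits. The fits were tested on simulated data. P-values set each difference against what the protein, fat and week terms leave unexplained in the pools, moderated by the prior. They do not measure a spread between mice or between repeated pools. The number of arrays limits the precision.

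The enzymes and lists were chosen with earlier results of these data known. All 9 enzymes were named. From each list those past the threshold were named or, where there were none, the 4 with the largest absolute difference. For enzymes with a range over 0.5, the 3 nearest genes were named. Arg1, Cps1, Oat, Lgr5, Cd3e, Atf4, Cebpa and Nr3c1 were named after their values were seen. Alternatives were other covariates, matched blocks, an intensity trend, array weights, centring, a filter on low values, the mean of probe sets, parts of the pools, each pool left out and a threshold of 0.1. Promoters and positions are from RefSeq. Figures were drawn in matplotlib 3.10.9, and tables in pandas 2.3.3 (NumPy 2.4.6, Python 3.11.15).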

Additional observations from a re-analysis of the deposited data

Results flagged for a closer look

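Gstz1 and Fah had HP minus NP differences of opposite sign at the 2 fat levels. For Gstz1 both LF comparisons were above 0 (0.03 at 1 week and 0.19 at 12 weeks) and both HF comparisons were below it (-0.14 and -0.19), with a protein by fat interaction of -0.28 (SE 0.12, adjusted p = 0.711 in limma). For Fah the LF comparisons were 0.00, just above 0, and 0.11, and the HF comparisons -0.03 and -0.01, with an interaction of -0.08 (SE 0.11, adjusted p = 0.869 in limma). Neither interaction passed the test. Ftcd also had opposite signs on average, -0.07 with LF pools alone and 0.11 with HF pools alone, but its HF comparisons were -0.06 at 1 week and 0.27 at 12 weeks, so they differed in sign among themselves. Its interaction was 0.18 (SE 0.14, adjusted p = 0.766 in limma). In 18 groups of 4 pools (HP and NP for each enzyme) none had a pool apart from the others by Dixon's criterion, which chance alone passes in about 1 of 20 groups. That rate is for repeats of 1 condition, while the 4 pools of a group differed in fat level and week. The criterion therefore cannot show that no pool deviated.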

How the results depend on the processing

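Under 19 alternatives to the HP against NP fit, of which 14 could move the estimates and 5 left every one as it was (no covariates, matched blocks, intensity trend, filter on low values, mean of probe sets), 0 of the 9 enzymes passed an adjusted p of 0.05, and 0 passed 0.1 in the original fit. The smallest adjusted p in any alternative was 0.101, for Tat with genes above the median level only. Tat (0.28 to 0.44), Hpd (0.20 to 0.29), Hgd (0.17 to 0.22), Hal (0.19 to 0.44), Uroc1 (0.19 to 0.28) and Amdhd1 (0.02 to 0.25) were positive in all 14 that could move them. The other 3 changed sign, and the cause was not tested. Gstz1 was 0.11 with LF pools alone and between -0.09 and 0.02 when 1 pool was left out. Fah was -0.01 with 1 week pools alone, -0.02 with HF pools alone and between -0.01 and 0.04 with 1 pool left out. Ftcd was -0.03 with array weights, -0.07 with 1 week pools alone, -0.07 with LF pools alone and between -0.05 and 0.05 with 1 pool left out. The counts by unadjusted p and without overlap were added as alternatives after seeing the data. Of the 5 enzymes with an unadjusted p under 0.05 there was 1 with 1 week pools alone (Uroc1), 0 with 12 weeks pools alone, 1 with LF pools alone (Hpd) and 1 with HF pools alone (Hal), against 2.81, 1.55, 3.08 and 3.2% of all genes higher, in fits with 4 pools each. With 1 pool left out there were 5 or 6, against 3.54 to 4.83% of all genes. The 4 enzymes without overlap were 3 after centring, which lost Hal (2.08% of all genes), and from 4 to 6 with 1 pool left out (2.6 to 4.56% of all genes). The analysis paired by fat level and week, with matched pools as blocks, gave the same differences and the same 5 enzymes, and 0 passed.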
